A study of Mus musculus with 9 samples.

Results

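The genes described here are 8 mouse genes of the endoplasmic reticulum (ER) stress response and the integrated stress response: Hspa5, Herpud1, Xbp1, Atf4, Ddit3, Trib3, Chac1 and Asns. They were taken by symbol from the count matrices of 9 kidneys, where all 8 were found among 32427 genes listed. They were taken as named genes of these pathways, with no threshold on a measured value, but with earlier results of these data known. In the cells that passed quality control, 5 of them were abundant, from 52286 UMIs for Xbp1 to 427321 for Herpud1 (a UMI, or unique molecular identifier, tags 1 captured mRNA molecule). The other 3 were sparse, with 801 UMIs for Asns, 408 for Chac1 and 247 for Trib3 in 196925 cells.

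The study profiled single cells from 9 male C57BL/6 mice, with 3 mice in each of 3 groups. The mice were obtained at 6 weeks of age and divided into groups after an adaptation period. Control mice were injected with saline. AKI-CKD mice were given cisplatin at 8 mg/kg into the peritoneum once a week for 4 weeks, a model in which repeated acute kidney injury (AKI) passes into chronic kidney disease (CKD). AKI-CKD + EGT mice received the same cisplatin and also ergothioneine (EGT), a diet-derived thiol antioxidant, at 0.5 mg/mL in drinking water from 3 days before cisplatin onwards, and are also called EGT-treated mice below. Kidney tissue was taken after 8 weeks, so acute responses to an injection were not sampled, and no group received EGT without cisplatin.

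When unfolded proteins build up in the ER, the sensors IRE1, PERK and ATF6 signal to the nucleus. IRE1 splices Xbp1 mRNA into the form that encodes an active transcription factor, and XBP1 and cleaved ATF6 raise chaperones such as Hspa5 and parts of ER-associated degradation such as Herpud1. PERK and its sister kinases, which respond to amino acid shortage, haem shortage and viral RNA, phosphorylate eIF2α, which slows general translation but favours that of Atf4 mRNA; ATF4 then raises Ddit3, Trib3, Chac1 and Asns. Both responses are known in tubule cells of the injured kidney. Since Atf4 is controlled largely by translation and Xbp1 by splicing, and gene counts do not separate spliced from unspliced Xbp1, the mRNA levels below do not measure the activity of either factor.

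The promoters are shown because each branch is known to act through short DNA elements. Each window ran from 250 bases before to 50 bases after the transcript start in RefSeq (GRCm38.p6), and all 8 genes matched by symbol. They were searched on both strands for the ER stress response element (ERSE: CCAAT, any 9 bases, CCACG), ERSE-II (ATTGG, 1 base, CCACG) and the C/EBP-ATF response element that ATF4 can bind (CARE: TGATGNAA). The 5 windows with a match are shown 5′ to 3′ on the gene's own strand, with the matched bases in capitals and a match on the opposite strand seen as its reverse complement.
Hspa5: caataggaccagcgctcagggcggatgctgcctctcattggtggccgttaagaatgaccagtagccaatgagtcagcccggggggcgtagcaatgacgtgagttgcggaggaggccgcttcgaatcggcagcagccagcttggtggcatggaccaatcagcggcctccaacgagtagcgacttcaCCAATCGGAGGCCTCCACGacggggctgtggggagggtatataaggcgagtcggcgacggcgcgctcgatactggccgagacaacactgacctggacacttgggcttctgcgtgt
Herpud1: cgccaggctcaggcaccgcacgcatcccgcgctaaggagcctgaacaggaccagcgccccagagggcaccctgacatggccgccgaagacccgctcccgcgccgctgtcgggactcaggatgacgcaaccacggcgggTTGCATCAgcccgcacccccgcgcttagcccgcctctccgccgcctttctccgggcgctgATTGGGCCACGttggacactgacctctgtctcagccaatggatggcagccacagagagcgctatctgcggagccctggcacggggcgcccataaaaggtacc
Asns: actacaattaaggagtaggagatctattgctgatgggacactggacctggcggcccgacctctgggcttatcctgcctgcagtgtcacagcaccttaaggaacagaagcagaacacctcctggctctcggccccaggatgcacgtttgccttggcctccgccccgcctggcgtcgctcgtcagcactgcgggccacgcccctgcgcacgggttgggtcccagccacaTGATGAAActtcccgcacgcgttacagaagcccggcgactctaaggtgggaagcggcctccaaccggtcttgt
Chac1: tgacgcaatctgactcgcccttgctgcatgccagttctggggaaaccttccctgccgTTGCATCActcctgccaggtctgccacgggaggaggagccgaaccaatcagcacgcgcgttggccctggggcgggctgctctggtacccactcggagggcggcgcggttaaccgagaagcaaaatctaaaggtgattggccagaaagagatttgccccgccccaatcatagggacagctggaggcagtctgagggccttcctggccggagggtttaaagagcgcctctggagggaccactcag
Trib3: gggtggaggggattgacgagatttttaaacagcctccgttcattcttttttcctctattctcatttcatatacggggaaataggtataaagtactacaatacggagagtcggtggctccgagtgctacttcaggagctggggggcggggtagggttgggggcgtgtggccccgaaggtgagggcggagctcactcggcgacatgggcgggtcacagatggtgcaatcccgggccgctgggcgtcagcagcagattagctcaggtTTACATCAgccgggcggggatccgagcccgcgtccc

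The Hspa5 window (chr2:34771840-34772139, plus strand) held the only exact ERSE match of the group, from 65 to 47 bases before the start. The Herpud1 window (chr8:94386179-94386478, plus strand) held the only exact ERSE-II match, from 52 to 42 bases before the start, and a CARE on the opposite strand from 112 to 105 bases before the start. Asns (chr6:7693160-7693459, minus strand) held a CARE from 23 to 16 bases before the start. Chac1 (chr2:119350992-119351291, plus strand) and Trib3 (chr2:152344011-152344310, minus strand) each held a CARE on the opposite strand, from 193 to 186 bases before and from 15 to 22 bases after the start. No match overlapped another. Of 32851 RefSeq promoter windows of this length, 0.119% held an ERSE, 0.0365% an ERSE-II and 3.97% a CARE. The windows of Ddit3, Atf4 and Xbp1 held no exact match. Elements that differ from these letters were not searched for in any window.

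The libraries held 70106161 to 101525691 UMIs each, and cells kept had a median of 2534 to 2966 UMIs per mouse. Proximal tubule (PT) cells made up 156009 of the kept cells, with 12407 of the distal convoluted tubule (DCT), 7561 of the loop of Henle (LOH), 3651 endothelial cells and 2011 macrophages among 13 classes named from marker genes. Of the DCT class, 4924 cells formed a cluster led by Calb1, S100g and Ltc4s, without Slc12a3 among its leading genes. No connecting tubule class was named, so the DCT class may hold such cells. The 8 stress genes were kept out of the genes used for clustering. Cell names recurred between libraries for 62337 of 98290 names, as running numbers do, and no pair of same-named cells had identical counts. Mouse 1 of the Control group stood apart: summed over its cells, Herpud1 was higher there than in any other mouse in 12 of 12 cell classes measured in all 9 mice, Hspa5 and Ddit3 in 11 and Xbp1 in 10. Its levels relative to the mean of Control mice 2 and 3 had a median over these classes of 2.31 for Herpud1, 2.22 for Ddit3, 1.68 for Xbp1 and 1.54 for Hspa5, but 0.997 for Atf4, which was highest in that mouse in 3 classes. The mitochondrial limit removed 17.0% of the barcodes of that mouse and 27.7% of those of AKI-CKD + EGT mouse 3, against 0.909% to 7.94% in the other 7. Most of the members' log2 fold changes against Control are therefore also given without Control mouse 1. That mouse was singled out by its high Hspa5, Herpud1, Ddit3 and Xbp1, so leaving it out shifts their values upwards by choice. The p values of those fits are therefore no support for a rise. The share of all genes with an unadjusted p under 0.05 is not given for them.

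RNA of PT cells was found in every other class. The 21 PT markers, summed, reached a median over mice of 29.7% of their level in PT cells of the same mouse in principal cells of the collecting duct (CD-PC), 30.1% in intercalated cells (CD-IC), 44.3% in thin limb, 48.1% in endothelial, 54.5% in DCT, 59.2% in LOH and 64.1% in macrophages, and 45.8% to 78.2% in the other 5 classes. No share was below 15.1% in any class and mouse. For a gene that is high in PT cells, the level in another class may include molecules of PT cells, and the classes of a mouse are not independent readings. In Control mouse 1 the share was the highest of the 3 Control mice in CD-PC, CD-IC, DCT, LOH, endothelial, T and B cells. What part PT RNA has in the levels and group values of the other classes was not tested.

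Across cell types the 8 genes did not share a pattern. Levels here are in CPM, the UMIs of a gene relative to all UMIs of the class in a mouse, as the mean ± SD over the mice of all groups, and they describe rebuilt classes without a test. Hspa5, the main chaperone of the ER lumen (BiP), was highest in CD-IC cells, at 614 ± 175 CPM (n = 9), and lowest in LOH cells, at 299 ± 90.9 CPM. It was 393 ± 116 CPM in PT cells. Herpud1, a membrane protein of ER-associated degradation, was instead highest in PT cells, at 616 ± 225 CPM, followed by macrophages at 568 ± 171 CPM. Its level in DCT cells, 351 ± 145 CPM, was below that of PT cells in 9 of 9 mice, with a median ratio of 0.566 (0.505 to 0.620). PT markers reached 54.5% there. In the other classes the Herpud1 ratio and the PT marker share lay further apart, though by little in cycling cells (0.631 and 57.8%) and T cells (0.553 and 48.6%). Wider gaps were 0.589 and 29.7% in CD-PC, 0.684 and 30.1% in CD-IC, 0.899 and 59.2% in LOH cells and 0.633 and 78.2% in podocytes. The macrophage level was below that of PT cells in 5 of 9 mice and above it in 4, and macrophages held PT markers at 51.8% to 78.7% of the PT level, so no order of these 2 classes is read from it. T cells were lowest at 341 ± 157 CPM.

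Xbp1 and Ddit3 had their highest mean in thin limb cells, and Atf4 in endothelial cells. Xbp1 was highest in thin limb cells, at 182 ± 65.0 CPM, above PT cells (71.7 ± 32.9 CPM) in 9 of 9 mice with a median ratio of 2.81. It was lowest in T cells, at 41.2 ± 22.8 CPM. Atf4 was highest in endothelial cells, at 230 ± 79.6 CPM, above the next class, myofibroblasts (162 ± 39.6 CPM), in 9 of 9 mice, and it was lowest in PT cells, at 75.9 ± 13.6 CPM. The ratio of endothelial to PT cells had a median of 2.75 (1.90 to 4.59). Ddit3, which encodes the pro-apoptotic factor CHOP, ranged from 86.5 ± 25.9 CPM in DCT cells to 181 ± 84.6 CPM in thin limb cells, and exceeded its PT level of 91.9 ± 36.0 CPM in 9 of 9 mice in thin limb cells, CD-IC cells and macrophages. For these 5 abundant genes, the gap between neighbours in the order of classes exceeded both SDs only for Xbp1 between thin limb cells and podocytes (104 ± 62.2 CPM, n = 7), and all other neighbours lay within their spread.

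The sparse genes rest on few molecules outside PT cells. Trib3, a pseudokinase that restrains ATF4 and CHOP, had its highest mean in endothelial cells, at 4.18 ± 1.54 CPM from 53 UMIs, against 0.221 ± 0.173 CPM in PT cells, and the endothelial level was the higher in 9 of 9 mice. Chac1, an enzyme that degrades glutathione, was 3.12 ± 1.20 CPM in endothelial cells from 39 UMIs and 0.469 ± 0.601 CPM in PT cells, again with 9 of 9 mice in the same order. Its mean in cycling cells was nominally higher, 3.83 ± 4.85 CPM from 13 UMIs. Trib3 in cycling cells was 3.62 ± 3.46 CPM, also from 13 UMIs, and endothelial cells exceeded them in only 5 of 9 mice. Asns, which makes asparagine, was 4.09 ± 2.89 CPM in DCT cells from 136 UMIs and 0.712 ± 0.537 CPM in PT cells, the DCT level being higher in 9 of 9 mice. Thin limb cells had the highest mean, 8.09 ± 9.90 CPM, from 17 UMIs, with an SD larger than the mean.

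**Figure D1:**
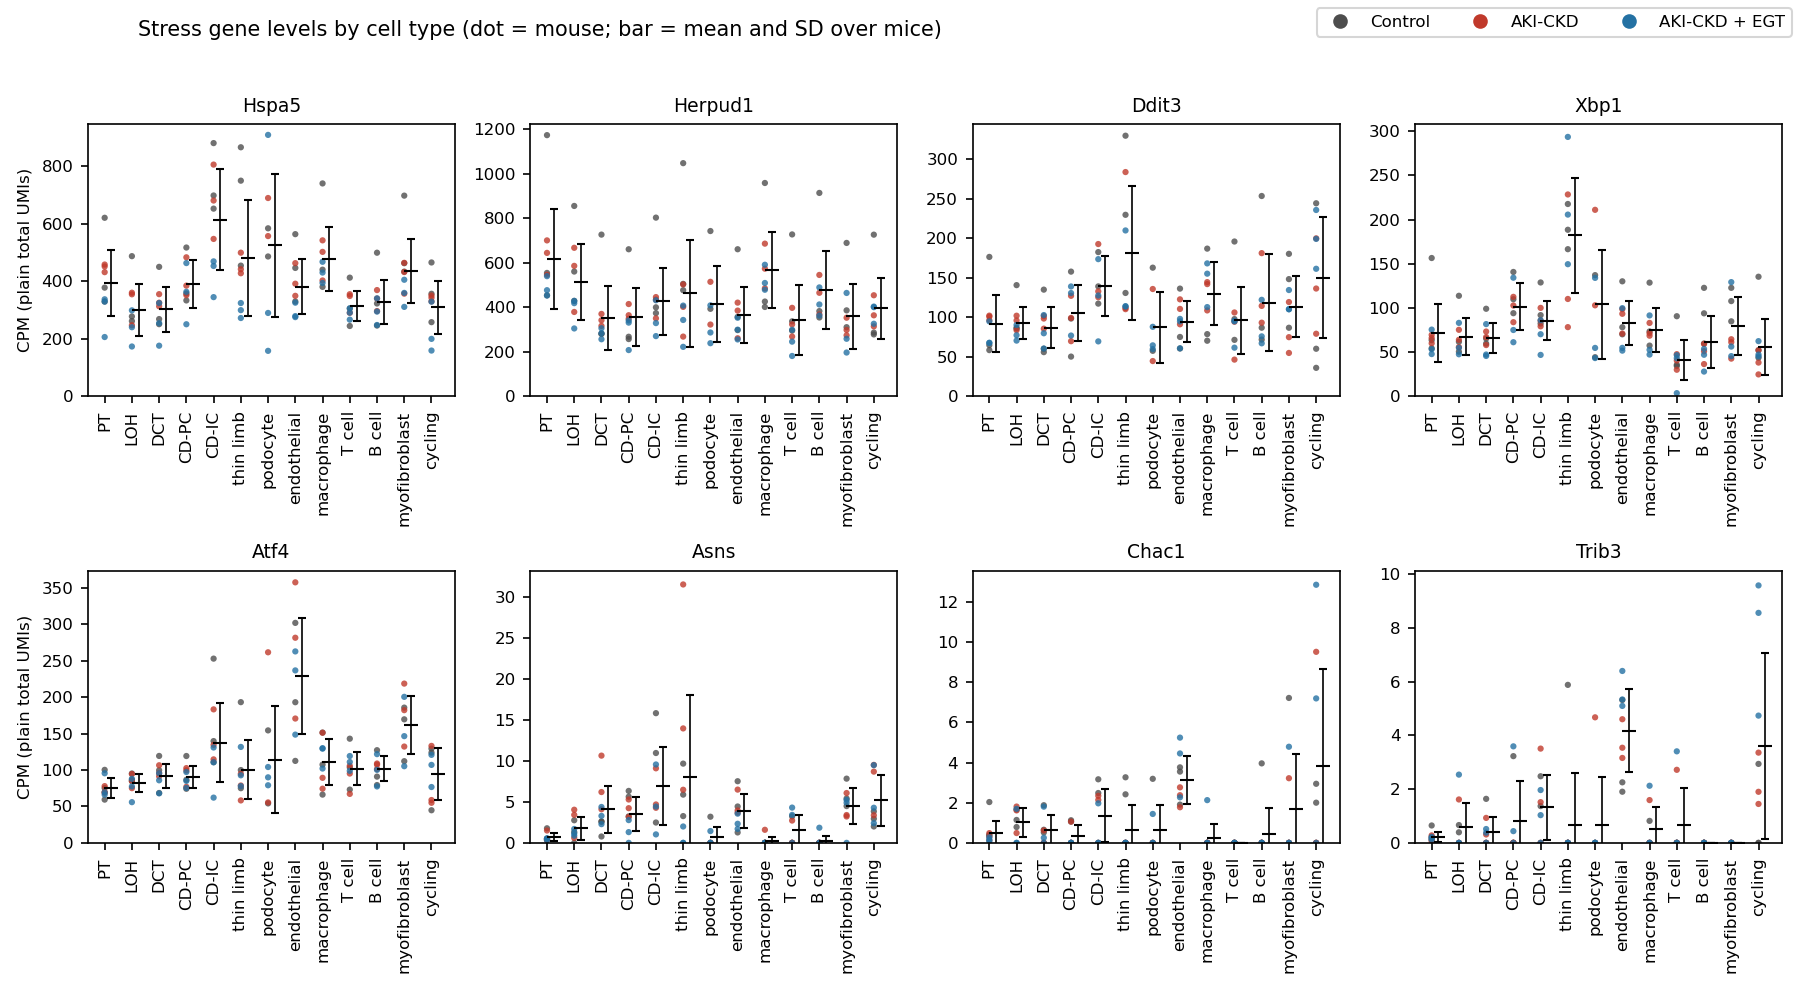
Levels of the 8 genes in CPM (plain total UMIs, linear axes from 0) in each of 13 cell classes, with 1 dot per mouse coloured by group and the mean and SD over mice beside them. Herpud1 has its highest mean in PT cells (616 CPM), though macrophages exceed PT cells in 4 of 9 mice. Atf4 has its highest mean in endothelial cells (230 CPM) and Xbp1 in thin limb cells (182 CPM). The sparse Asns, Chac1 and Trib3 stay below 10 CPM in the mean of every class.

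Over the means of the 13 classes, the genes with the pattern most like each abundant member among 12341 compared were Alcam (Pearson's r = 0.892), Calr (0.877) and Ppfibp2 (0.874) for Hspa5, Nat8f5 (0.863), Hnf4g (0.845) and Minpp1 (0.789) for Herpud1, Slc43a3 (0.965), Dll4 (0.939) and Ets2 (0.939) for Atf4, Myo5a (0.938), Nup54 (0.839) and Ccdc86 (0.822) for Ddit3, and Tmub2 (0.925), Aga (0.916) and Ube2r2 (0.916) for Xbp1. Among the members themselves, the highest value was 0.711 between Trib3 and Chac1, both sparse. Between abundant members the highest was 0.637 for Hspa5 and Xbp1, while Hspa5 and Herpud1 stood at 0.190. The classes come from the same 9 libraries, so these values describe likeness only.

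In PT cells of AKI-CKD mice, 8 weeks into the experiment, no stress gene passed the test against Control, edgeR's quasi-likelihood test on the counts summed per mouse with Benjamini-Hochberg adjustment over all genes tested. Of the 8 members, 0 passed an adjusted p of 0.05, where 0.0446% of 17957 genes did (8 genes). DESeq2 also called 0 of the 7 members for which it gave an adjusted p, where 1.25% of genes were called, and 0 members had an unadjusted p under 0.05 in edgeR, where 11.3% of genes did. For Hspa5, Herpud1, Ddit3 and Xbp1 the Control mice were spread, with mouse 1 far above mice 2 and 3, and the AKI-CKD mice lay closer together. For the sparse Asns, Chac1 and Trib3 the AKI-CKD mice were spread as well. Levels in the comparisons between groups are CPM scaled by trimmed mean of M values (TMM), which corrects for differences in RNA composition.

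Hspa5 was 585, 351 and 386 TMM-scaled CPM in Control mice 1 to 3, 470, 458 and 515 in those of the AKI-CKD group, and 334, 195 and 271 with EGT. All 3 EGT-treated mice were below all 3 AKI-CKD mice, while the AKI-CKD mice lay above Control mice 2 and 3 and below Control mouse 1. The log2 fold change of AKI-CKD against Control was 0.13 ± 0.23 (SE, adjusted p = 0.838) and became 0.39 ± 0.21 without Control mouse 1 (adjusted p = 0.595). That of AKI-CKD + EGT against AKI-CKD was -0.85 ± 0.23, with an unadjusted p of 0.00364 and an adjusted p of 0.223. Of the 8 members this was the 1 in PT cells with an unadjusted p under 0.05, where 15.4% of all genes had one, and edgeR did not call it. DESeq2 gave -0.84 ± 0.24 with an adjusted p of 0.0216, which passes, as did 2.58% of all genes in DESeq2. Leaving out each mouse in turn gave log2 fold changes from -1.04 to -0.67, and without AKI-CKD + EGT mouse 3 the value was -0.85 ± 0.27. EGT-treated and Control mice were not compared by a test. On this scale they did not overlap, but on plain CPM they did, the highest EGT-treated mouse being at 336.7 and the lowest Control mouse at 329 CPM.

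Herpud1 was 1107, 484 and 567 TMM-scaled CPM in Control, 672, 580 and 788 in AKI-CKD and 473, 513 and 374 in EGT-treated mice. The order was that of Hspa5: the AKI-CKD mice lay between Control mouse 1 and Control mice 2 and 3, and the EGT-treated mice were all below the AKI-CKD mice. The log2 fold change of AKI-CKD against Control was -0.08 ± 0.28 (adjusted p = 0.929), or 0.37 ± 0.20 without Control mouse 1 (adjusted p = 0.586). With EGT against AKI-CKD it was -0.59 ± 0.28 (adjusted p = 0.349), or -0.36 ± 0.29 when scaled by plain total UMIs without TMM.

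**Figure D2:**
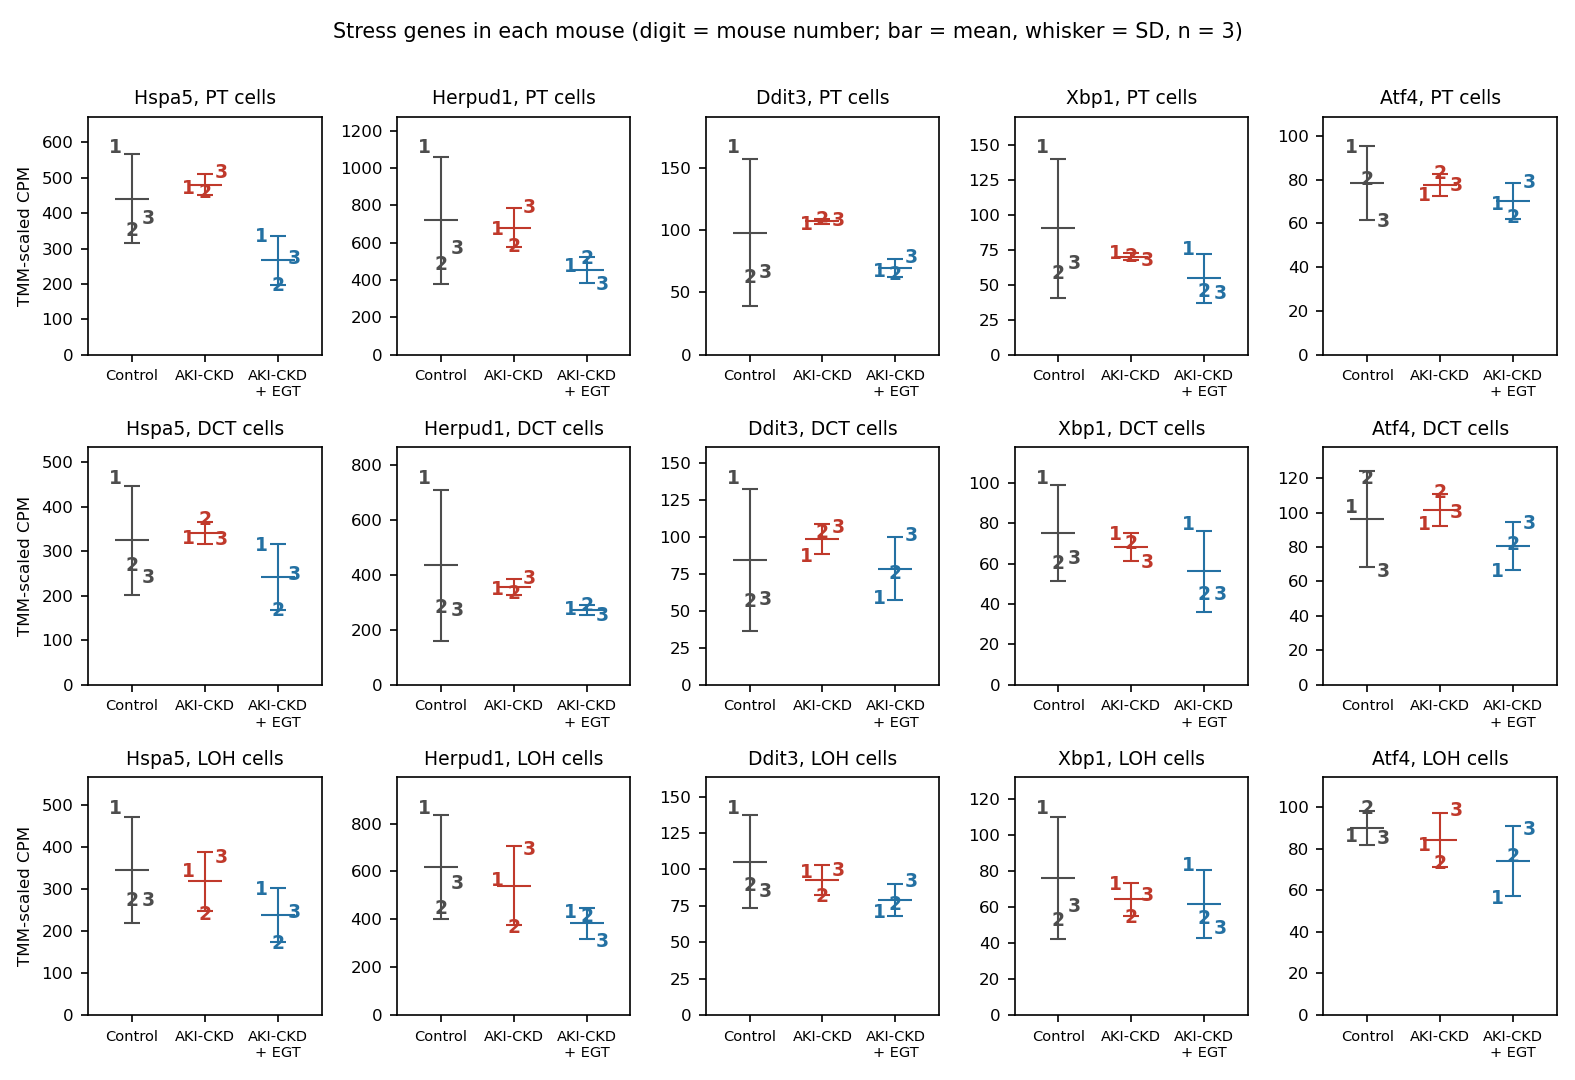
TMM-scaled CPM (linear axes from 0) of the 5 abundant genes in PT, DCT and LOH cells of each mouse, the digit being the mouse number within its group, with the mean and SD of 3 mice. Control mouse 1 is at the top for Hspa5, Herpud1, Ddit3 and Xbp1 in all 3 cell types, and in PT cells the 3 AKI-CKD + EGT mice lie below the 3 AKI-CKD mice for Hspa5, Herpud1 and Ddit3.

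Ddit3 was 166, 62.2 and 65.9 TMM-scaled CPM in Control, 105, 108 and 108 in AKI-CKD and 66.9, 64.2 and 78.2 in EGT-treated mice. The AKI-CKD values were nearly equal, the EGT-treated mice were all below them, and the latter were close to Control mice 2 and 3. The log2 fold change of AKI-CKD against Control was 0.13 ± 0.31 (adjusted p = 0.892). Without Control mouse 1 it was 0.74 ± 0.14, with an unadjusted p of 0.000251 and an adjusted p of 0.125, so this 1 library moved the log2 fold change by more than its SE. As that mouse was left out for its high level of genes such as Ddit3, this p is no support for a rise. EGT against AKI-CKD gave -0.62 ± 0.31 (adjusted p = 0.365), or -0.38 ± 0.36 on the plain scale.

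Xbp1 and Atf4 had smaller log2 fold changes with EGT. Xbp1 was 148, 57.9 and 64.9 TMM-scaled CPM in Control, 72.4, 70.0 and 67.3 in AKI-CKD and 74.9, 45.3 and 43.9 in EGT-treated mice, where mouse 1 of the EGT-treated group was above all AKI-CKD mice and mice 2 and 3 were below them. Its log2 fold changes were -0.37 ± 0.32 for AKI-CKD against Control (adjusted p = 0.657), 0.19 ± 0.22 without Control mouse 1, and -0.35 ± 0.33 for EGT against AKI-CKD (adjusted p = 0.618), which was -0.15 ± 0.34 on the plain scale, and -0.65 without AKI-CKD + EGT mouse 1 and -0.21 without mouse 3 of that group. Atf4 was 94.6, 80.3 and 60.7 in Control, 72.8, 82.9 and 77.4 in AKI-CKD and 68.9, 62.9 and 79.0 in EGT-treated mice. All 3 groups overlapped, and its log2 fold changes were -0.02 ± 0.16 and -0.15 ± 0.16 (adjusted p = 0.980 and 0.696), the first being 0.14 ± 0.16 without Control mouse 1 and the second running from -0.23 to -0.08 with 1 mouse left out.

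The ATF4 targets Asns, Chac1 and Trib3 were counted too rarely in PT cells for a firm comparison. Asns gave 118, 29 and 39 UMIs in Control, 121, 23 and 38 in AKI-CKD and 30, 20 and 22 in EGT-treated mice, so that mouse 1 of both the Control and the AKI-CKD group held most of its group's molecules. Chac1 gave 135, 33 and 28 UMIs in Control, 24, 28 and 11 in AKI-CKD and 9, 16 and 3 in EGT-treated mice. Control mouse 1 was again far above the rest. The log2 fold change of Chac1 against Control was -1.50 ± 0.70 (adjusted p = 0.445) with that mouse and -0.33 ± 0.59 without it. In the same way Asns went from -0.03 ± 0.60 to 0.90 ± 0.56 and Trib3 from -0.87 ± 0.66 to 0.01 ± 0.66. Trib3 gave 43, 18 and 8 UMIs in Control, 13, 16 and 5 in AKI-CKD and 7, 10 and 9 in EGT-treated mice. With EGT against AKI-CKD, the log2 fold changes were -0.96 ± 0.63 for Asns, -0.97 ± 0.77 for Chac1 and -0.15 ± 0.70 for Trib3, each with overlapping groups. These values turned on single mice: Asns was -0.12 without AKI-CKD mouse 1 (-1.28 to -0.12 with 1 mouse left out), Chac1 -0.50 without AKI-CKD mouse 2 (-1.52 to -0.50) and Trib3 0.38 without AKI-CKD mouse 2 (-0.56 to 0.38).

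Taking the 8 genes in PT cells for AKI-CKD + EGT against AKI-CKD, all 8 log2 fold changes were negative, with a median of -0.60 against -0.01 over all genes tested. Of the 8, 0 passed the adjusted p in edgeR, where 0% of 17957 genes did. DESeq2 called 1 (Hspa5) and 463 of all genes (2.58%). The mice of the 2 groups did not overlap, with EGT lower, for 3 of 8 members (Hspa5, Herpud1 and Ddit3) and for 11.0% of all genes. For AKI-CKD against Control, 0 of 8 members were without overlap in either direction, where 21.0% of all genes were. Both comparisons share the AKI-CKD mice. Scaling by plain total UMIs, without TMM, moved the median of all genes in EGT against AKI-CKD to 0.22. On that scale the member median was -0.37, 6 of 8 members were negative, Hspa5 was at -0.62 ± 0.24, Atf4 and Trib3 turned positive (0.09 and 0.07), and the same 3 members were without overlap. For Herpud1 and Ddit3 the separation on that scale was narrow, the closest mice of the groups being almost level. The share of all genes without overlap was not taken on the plain scale, and the 11.0% above belongs to the TMM scale. The plain scale moved the median of all genes in AKI-CKD against Control to -0.11, and the log2 fold change of Ddit3 to -0.0016.

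Other measures moved with the EGT comparison in PT cells. The summed level of the 13 mitochondrially encoded genes was 34310 to 55290 CPM in EGT-treated mice, against 19230 to 30360 for AKI-CKD and 14650 to 59410 for Control. The summed level of 10 DCT markers in PT cells was 442 to 1235 CPM with EGT, 189 to 331 in AKI-CKD and 301 to 527 in Control, and 9 LOH markers summed to 438 to 692, 320 to 393 and 330 to 435 CPM. The sums of 4 more marker lists were also higher with EGT without overlap, at 64.9 to 110.6 against 34.7 to 47.8 CPM for 8 CD-PC markers, 13.0 to 79.2 against 6.23 to 10.4 for 10 CD-IC markers, 43.6 to 72.3 against 31.4 to 35.1 for 6 erythroid markers and 27.6 to 33.5 against 22.4 to 25.9 for 13 endothelial markers. No gene of these lists was at 0 in all mice of a group. Also summed were the 19 heat shock and immediate early genes known to respond to tissue dissociation. Their sums overlapped, at 2279 to 4244 CPM with EGT, 2486 to 4256 in AKI-CKD and 2250 to 3988 in Control. For EGT against AKI-CKD, 11 of the 19 had negative log2 fold changes. Without overlap, 7 were lower and 0 higher, where 11.0% of all genes were lower. In edgeR, 5 were lower and 1 higher with an unadjusted p under 0.05, where 15.4% of all genes had one in either direction. The 4 with the smallest p were Dnajb1 at -0.93 ± 0.24, Hsp90aa1 at -0.60 ± 0.22, Hspa1b at -1.62 ± 0.605 and Hspa1a at -1.51 ± 0.57. Their part in the stress gene values was not tested.

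**Figure D3:**
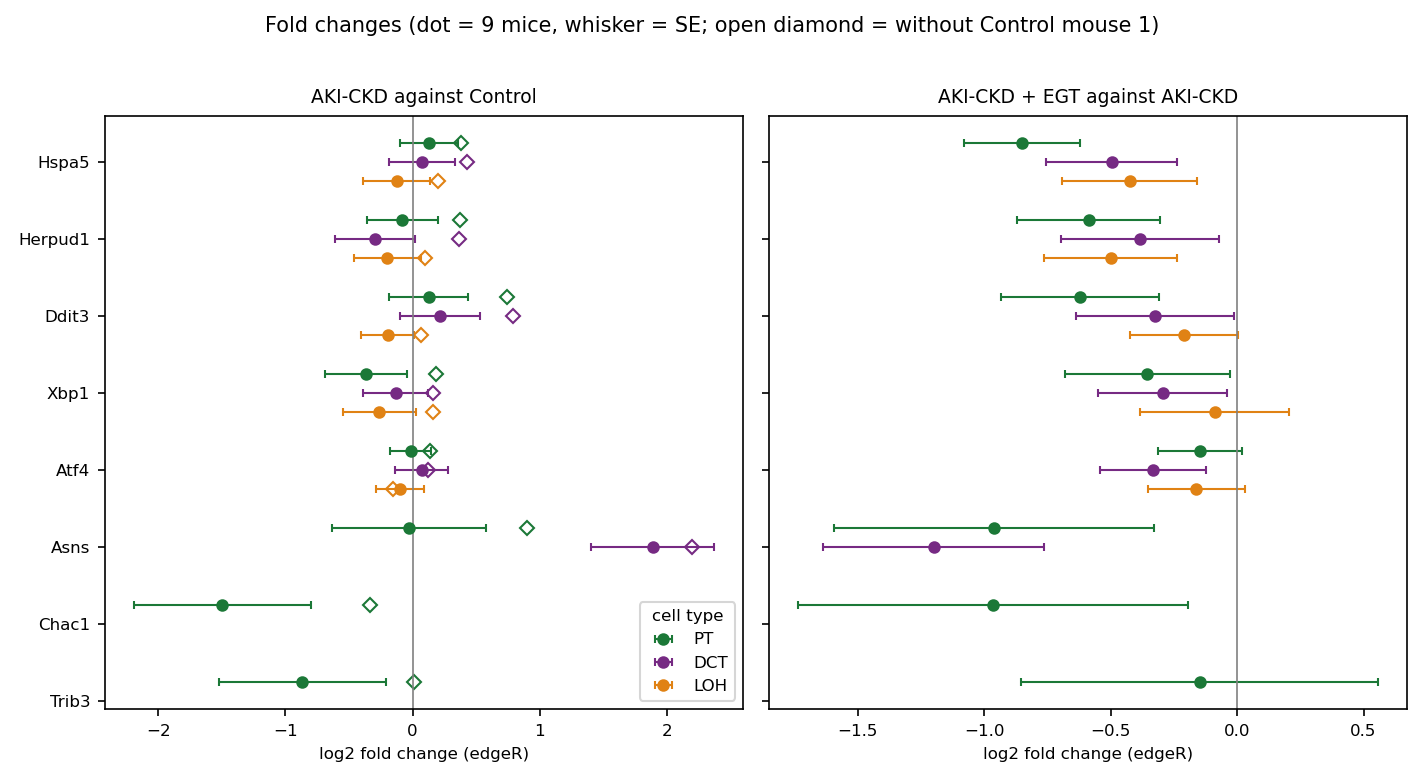
Log2 fold changes from edgeR with SE for the 8 genes in PT, DCT and LOH cells, AKI-CKD against Control on the left and AKI-CKD + EGT against AKI-CKD on the right, with open diamonds for the fit without Control mouse 1. Asns in DCT cells stands at 1.89 on the left and -1.20 on the right, all tested values on the right are negative on this TMM scale (Atf4 and Trib3 in PT cells are positive on the plain scale), and most diamonds lie to the right of their dots.

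In DCT cells Asns had the largest log2 fold changes, higher in AKI-CKD than in Control and lower with EGT. It was 2.66, 0.781 and 2.51 TMM-scaled CPM in Control, 10.8, 6.49 and 4.28 in AKI-CKD and 4.25, 2.16 and 3.23 in EGT-treated mice. The AKI-CKD mice were above all mice of the other groups, but AKI-CKD mouse 3 exceeded AKI-CKD + EGT mouse 1 only by 4.28 to 4.25. These levels came from 11, 3 and 8, then 34, 20 and 8, then 17, 9 and 26 UMIs. The log2 fold change was 1.89 ± 0.48 for AKI-CKD against Control (unadjusted p = 0.00184, adjusted p = 0.435) and -1.20 ± 0.44 for EGT against AKI-CKD (unadjusted p = 0.0167, adjusted p = 0.330), neither of which passes. Without a filter on low counts, edgeR called the former (1.88 ± 0.45, adjusted p = 0.00653), as it did 0.961% of genes. Both comparisons use the same AKI-CKD mice. Other measures moved with AKI-CKD against Control in DCT cells. The 13 endothelial markers summed to 80.88 to 98.87 CPM in AKI-CKD and 51.97 to 73.58 in Control, without overlap. Of the 19 dissociation-responsive genes, 16 had positive log2 fold changes and 3 negative ones. Their part in the Asns values was not tested. Leaving out each mouse gave 1.47 to 2.20, the highest being without Control mouse 1, and -1.42 to -0.78, the last without AKI-CKD mouse 1.

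The other 5 tested members in DCT cells had smaller log2 fold changes, and Trib3 and Chac1 were too low to be tested. For AKI-CKD against Control, 0 of 6 members passed, where 0% of 11909 genes did; 1 had an unadjusted p under 0.05 (Asns), where 9.21% of genes did, DESeq2 called 0 of 6 and 0.0924% of genes, and 1 of 6 was higher without overlap, where 8.22% of all genes were. For EGT against AKI-CKD, 0 of 6 passed, where 0% of genes did; 1 had an unadjusted p under 0.05 (Asns), where 12.2% of genes did, DESeq2 called 0 of the 2 members for which it gave an adjusted p and 0.605% of genes, and 3 of 6 were lower without overlap (Asns, Hspa5 and Herpud1), where 7.95% of genes were. On the plain scale, which moved the median of all genes to 0.11, only Herpud1 of the 6 was lower without overlap. The share of all genes was not taken on that scale.

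Hspa5 in DCT cells was 465, 269 and 240 TMM-scaled CPM in Control, 330, 371 and 326 in AKI-CKD and 314, 166 and 249 in EGT-treated mice, a gap between the last 2 groups of 326 to 314. EGT against AKI-CKD gave a log2 fold change of -0.50 ± 0.26 (adjusted p = 0.458), or -0.28 without AKI-CKD + EGT mouse 2 (-0.72 to -0.28 with 1 mouse left out). Herpud1 was 752, 282 and 269 in Control, 347, 331 and 386 in AKI-CKD and 275, 289 and 251 in EGT-treated mice, at -0.38 ± 0.31 (adjusted p = 0.626). Against Control, Hspa5 went from 0.08 ± 0.26 to 0.43 ± 0.23 and Herpud1 from -0.29 ± 0.31 to 0.36 ± 0.16 when Control mouse 1 was left out, with adjusted p of 0.749 and 0.735. Ddit3 was 140, 56.0 and 57.7 in Control, 86.8, 103 and 106 in AKI-CKD and 58.5, 75.4 and 101 in EGT-treated mice. As in PT cells, Ddit3 in AKI-CKD lay between Control mouse 1 and the other Control mice, and its log2 fold change against Control went from 0.22 ± 0.31 (adjusted p = 0.849) to 0.79 ± 0.22 without that mouse (unadjusted p = 0.00337, adjusted p = 0.708). The 19 dissociation-responsive genes in DCT cells had 18 negative log2 fold changes for EGT against AKI-CKD, with a median of -0.38. Of them, 4 were lower and 0 higher without overlap, where 7.95% of all genes were lower. The mitochondrially encoded genes summed to 32160 to 84180 CPM in DCT cells with EGT and 24170 to 31510 in AKI-CKD, the 6 erythroid markers to 49.96 to 131.6 and 33.3 to 35.02, and the 13 endothelial markers to 55.81 to 75.53 and 80.88 to 98.87, each without overlap. The 13 myofibroblast markers (9.79 to 36.95 against 7.44 to 9.22 CPM) and 10 T cell markers (3.42 to 4.38 against 0.939 to 2.17) were also higher without overlap. The part of these measures in the stress gene values was not tested.

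In LOH cells no member passed the test or was free of overlap. All 5 tested members had negative log2 fold changes in both comparisons. For AKI-CKD against Control the values ran from -0.26 to -0.10, and 0 of 5 passed, where 0% of 11331 genes did. Without Control mouse 1, Atf4 stayed negative at -0.15 and the other 4 turned positive, from 0.07 to 0.20. For EGT against AKI-CKD, 0 of 5 passed, where 0% of genes did, and 0 of 5 were lower without overlap, where 6.61% of genes were. Herpud1, at 563, 368 and 693 TMM-scaled CPM in AKI-CKD and 429, 411 and 309 in EGT-treated mice, had the largest value, -0.50 ± 0.26 (adjusted p = 0.509), and Hspa5 was at -0.42 ± 0.27 (adjusted p = 0.565). With 1 mouse left out they ran from -0.72 to -0.29 (the latter without AKI-CKD mouse 3) and from -0.60 to -0.22 (the latter without AKI-CKD + EGT mouse 2). AKI-CKD mouse 2 was below 2 of the 3 EGT-treated mice for Herpud1. In edgeR 0 members had an unadjusted p under 0.05 in either comparison, where 8.97% and 10.8% of genes did, and DESeq2 called 0 of 5, and 0.203% and 0.388% of genes. Other measures moved with the EGT comparison here as well. The mitochondrially encoded genes summed to 39470 to 83530 CPM with EGT and 23900 to 33630 in AKI-CKD, the 10 DCT markers to 781.9 to 2244 and 225.3 to 552, the 6 erythroid markers to 49.14 to 242.2 and 27.48 to 36.12, and the 11 cycling markers to 6.78 to 8.65 and 11.4 to 21.8, each without overlap. Of the 19 dissociation-responsive genes 14 were negative, with a median of -0.18. Their part in the stress gene values was not tested.

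Outside the tubule, Hspa5 in endothelial cells was lower with EGT without overlap. It was 361, 397 and 480 TMM-scaled CPM in AKI-CKD and 301, 263 and 278 in EGT-treated mice, against 582, 451 and 324 in Control. The log2 fold change of EGT against AKI-CKD was -0.55 ± 0.20 (unadjusted p = 0.0170, adjusted p = 0.387). Of the 5 tested members in endothelial cells, 0 passed in this comparison, where 0.00957% of 10448 genes did, and 0 in AKI-CKD against Control, where 0% did; 1 and 0 had an unadjusted p under 0.05, where 10.1% and 9.47% of genes did, and DESeq2 called 0 of the 3 and 0 of the 5 with an adjusted p, and 0.660% and 0.105% of genes. Hspa5 was the 1 of 5 that was lower without overlap, where 7.61% of genes were. Endothelial Atf4, the highest level of this gene in any class, was 177, 363 and 292 in AKI-CKD, 138, 227 and 263 in EGT-treated and 200, 306 and 111 in Control mice, which overlap. Against Control, Ddit3 went from 0.27 ± 0.28 to 0.71 ± 0.25 without Control mouse 1 (unadjusted p = 0.0136, adjusted p = 0.622), Hspa5 from -0.13 ± 0.20 to 0.09 ± 0.20, Herpud1 from -0.28 ± 0.28 to 0.17 ± 0.23, and Xbp1 from -0.06 ± 0.27 to 0.29 ± 0.27.

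Other measures moved with the EGT comparison in endothelial cells too. Of the 19 dissociation-responsive genes, 17 had negative log2 fold changes, with a median of -0.47, where Hspa5 was at -0.55. Their summed level overlapped, at 8211 to 13770 CPM with EGT and 7425 to 21590 in AKI-CKD. Their median and the Hspa5 value were -0.10 and -0.85 in PT cells, -0.38 and -0.50 in DCT cells, and -0.18 and -0.42 in LOH cells. In macrophages they were 0.17 and -0.22, with 12 of the 19 genes positive. The mitochondrially encoded genes summed to 34420 to 69680 CPM with EGT and 20560 to 33390 in AKI-CKD, without overlap. The 21 PT markers summed to 37460 to 58670 and 26810 to 64610 CPM, none of them at 0 in all mice of a group, against 4496 to 7537 and 5027 to 7241 CPM for 13 endothelial markers. Among the marker lists, sums higher with EGT without overlap were those of 6 erythroid markers (36.5 to 103 against 18.98 to 27.17 CPM), 8 B cell markers (257.9 to 294.7 against 175.5 to 256.3), 8 urothelial markers (6.23 to 25.6 against 1.18 to 4.74) and 6 neutrophil markers (1.16 to 2.83 against 0 to 0.921). Their part in the Hspa5 value was not tested.

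In macrophages the groups overlapped. Hspa5 was 418, 547 and 498 TMM-scaled CPM in AKI-CKD and 401, 454 and 415 in EGT-treated mice, and Ddit3 was 113, 143 and 144 in AKI-CKD and 115, 163 and 150 in EGT-treated mice. The values of both genes overlapped, with log2 fold changes of -0.22 ± 0.24 and 0.08 ± 0.32. Of 5 tested members, 0 passed in each comparison, where 0.0141% of 7103 genes did in AKI-CKD against Control and 0.0141% in EGT against AKI-CKD, and 0 were lower with EGT without overlap, where 6.00% of genes were. In edgeR 0 had an unadjusted p under 0.05, where 5.07% and 6.57% of genes did, and DESeq2 called 0, and 0.0141% of genes in each. Against Control, leaving out Control mouse 1 moved Ddit3 from 0.26 ± 0.32 to 0.87 ± 0.26 (unadjusted p = 0.00431, adjusted p = 0.999), Herpud1 from -0.01 ± 0.28 to 0.51 ± 0.22 (unadjusted p = 0.0390, adjusted p = 0.999), Hspa5 from -0.08 ± 0.23 to 0.26 ± 0.22, Xbp1 from -0.26 ± 0.33 to 0.17 ± 0.33 and Atf4 from -0.03 ± 0.31 to 0.28 ± 0.33. AKI-CKD mouse 1 had the fewest macrophages and gave 63 Hspa5 UMIs and 17 Ddit3 UMIs.

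Whether a group effect differed from that in PT cells was tested in a joint fit of both classes with the mouse as a block, over the members that passed the low-count filter in the class by itself, 6 in DCT cells and 5 in the others. The rest entered the fit with too few molecules to be read, such as Chac1 in macrophages, with 0 UMIs in Control and AKI-CKD. No member passed an adjusted p of 0.05. For DCT cells 0 of 6 passed, where 0% of 17286 genes did in AKI-CKD against Control and 0% in EGT against AKI-CKD; the Asns effect of AKI-CKD was higher in DCT than in PT cells by 1.98 ± 0.56 on the log2 scale. For LOH cells 0 of 5 passed in each, where 0.364% and 3.95% of 20585 genes did. The Hspa5 effect of EGT was less negative in LOH than in PT cells by 0.38 ± 0.14 (adjusted p = 0.120), or by 0.20 ± 0.13 on the plain scale (adjusted p = 0.378). For endothelial cells the shares of all genes were 0.151% and 0.414%, and for macrophages 0.164% and 0.158%, with 0 of 5 members in each. The largest Hspa5 difference was that of macrophages, whose EGT effect was 0.61 ± 0.18 above that of PT cells (unadjusted p = 0.000489, adjusted p = 0.175), or 0.48 ± 0.18 on the plain scale (adjusted p = 0.681). Of 42 member values in these 8 tests, 6 had an unadjusted p under 0.05: Asns for DCT cells and Ddit3 for LOH cells in the AKI-CKD effect, where 5.67% and 12.4% of genes did, Hspa5 for LOH cells in the EGT effect (19.5%), Atf4 for endothelial cells in the AKI-CKD effect (4.91%), and Hspa5 and Ddit3 for macrophages in the EGT effect (4.58%). In the other 3 tests 0 members did, where 8.86% of genes (DCT, EGT effect), 6.28% (endothelial, EGT effect) and 4.33% (macrophages, AKI-CKD effect) did. Without AKI-CKD mouse 3, 3 members were called for LOH cells in the EGT effect: Hspa5 (0.74, adjusted p = 0.0017), Ddit3 (0.67, adjusted p = 0.0152) and Xbp1 (0.58, adjusted p = 0.0462), where 13.5% of genes were called. Ddit3 was called for LOH cells in the AKI-CKD effect without Control mouse 1 (-0.68, adjusted p = 0.0293, with 1.32% of genes called) or without AKI-CKD mouse 3 (-0.66, adjusted p = 0.0294, with 4.99%), and Hspa5 for macrophages in the EGT effect without AKI-CKD + EGT mouse 1 (0.79, adjusted p = 0.0147, with 0.197%). In classes built without Harmony, the EGT effect was called for Hspa5 in LOH cells (0.45, adjusted p = 0.0491, with 5.27% of genes called) and for Hspa5 and Ddit3 in macrophages (0.57 and 0.69, adjusted p = 0.00481 and 0.0468, with 0.361%). Most of that LOH class was 1 cluster of 20370 cells, unevenly drawn from the mice. AKI-CKD + EGT mouse 3 gave 42.4% of it, and each AKI-CKD mouse 1.75% to 3.05%.

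PT cells themselves fell into 9 clusters in which the stress genes differed widely, given here as plain CPM and as a description. Cluster 7, with 8949 cells led by Cxcl10, Cxcl1, Hmox1, Angptl4 and Gdf15, had the highest mean of Hspa5 (699 ± 265 CPM, n = 9), Herpud1 (1094 ± 449), Ddit3 (200 ± 67.5) and Xbp1 (104 ± 52.0). Atf4 was highest in cluster 8, at 113 ± 21.2 CPM, with cluster 7 at 110 ± 26.0. Clusters 1 and 2, led by Kap, Mogat1 and Cyp4a14 and by Cyp2a4, Slc7a13 and Mogat1, were at the low end for Hspa5 (247 ± 46.0 and 261 ± 36.4 CPM), Herpud1 (312 ± 91.3 and 345 ± 69.9) and Ddit3 (37.0 ± 16.6 and 29.4 ± 10.2). Cluster 7 took 4.90% to 6.84% of the PT cells of a mouse.

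For Hspa5 and Herpud1, the mean with EGT was lower in each cluster, but not for the other members. The mean of the AKI-CKD + EGT mice was below that of the AKI-CKD mice in 9 of 9 clusters for Hspa5 and Herpud1, in 7 for Asns, in 6 for Xbp1 and Chac1, in 5 for Ddit3, in 4 for Trib3 and in 1 for Atf4. All 3 EGT-treated mice were below all 3 AKI-CKD mice in 5 clusters for Hspa5, in 3 each for Herpud1 and Ddit3 and in 2 for Asns. For Atf4, Xbp1, Trib3 and Chac1 this held in 0 clusters. The same counts were not taken over all genes, so it is not known whether those of the members are unusual. Single mice went against the means of Hspa5 and Herpud1. In cluster 0, Herpud1 was 273.3 CPM in AKI-CKD mouse 2 and 292.4, 312.5 and 304.9 CPM in the EGT-treated mice. In cluster 2, Hspa5 was 283.7 CPM in AKI-CKD + EGT mouse 1 and 258.8, 249.7 and 268.7 CPM in the AKI-CKD mice. The mean of AKI-CKD was above that of Control mice 2 and 3 in 9 of 9 clusters for Ddit3, Herpud1 and Xbp1 and in 7 for Hspa5, but above that of all 3 Control mice in 3, 0, 0 and 4 of them. Control mouse 1 was the highest of the 9 mice for Herpud1, Ddit3 and Xbp1 in 9 of 9 clusters. The clusters share the same 9 mice and are not replicates of a group.

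**Figure D4:**
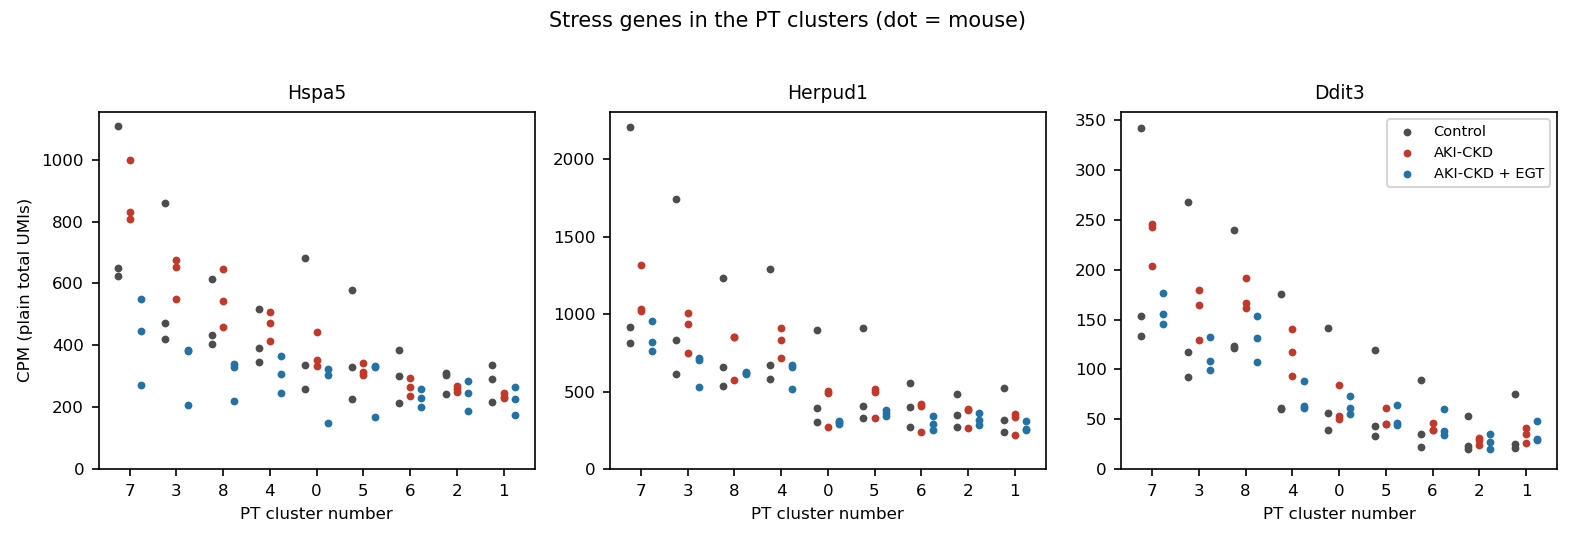
Plain CPM (linear axes from 0) of Hspa5, Herpud1 and Ddit3 in the 9 PT clusters, ordered by mean Hspa5, with 1 dot per mouse coloured by group. Cluster 7 is at the left with means of 699, 1094 and 200 CPM, and for Hspa5 and Herpud1 the mean of the AKI-CKD + EGT mice is below that of the AKI-CKD mice in each cluster.

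The wider pathway, from lists that hold none of the 8 members, was read by counts in PT cells. Among 18 ER folding genes, chaperones and disulphide isomerases that XBP1 and ATF6 are known to raise or that work beside Hspa5, 0 passed for EGT against AKI-CKD, 17 of 18 log2 fold changes were negative (median -0.29) and 8 were lower without overlap, where 11.0% of all genes were. The smallest unadjusted p values belonged to Pdia4 (-0.54 ± 0.16), Calr (-0.47 ± 0.16), Manf (-0.82 ± 0.31) and Canx (-0.29 ± 0.12). Of 13 genes of ER-associated degradation, 0 passed, 12 were negative (median -0.22) and 2 were lower without overlap, a share near that of all genes, with Derl2 at -0.35 ± 0.13 and Sel1l at -0.32 ± 0.14. Of 33 tested ATF4 targets, 0 passed and 26 were negative (median -0.22), 7 without overlap, but the individual genes split: Sesn2 was at -0.58 ± 0.17 and Wars1 at -0.31 ± 0.12, whereas Nupr1 was at 1.87 ± 0.51 and Slc7a1 at 1.66 ± 0.59. The stress sensors and their partners were evenly divided, 6 of 12 negative, with Ern1 (IRE1) at 0.49 ± 0.20 and Dele1, which relays mitochondrial stress, at -0.32 ± 0.11. Of 9 mitochondrial chaperones and proteases 0 passed and 8 were negative, with Hspe1 at -0.55 ± 0.18. These directions depended on the scale. On plain total UMIs, where the median of all genes was 0.22, 11 of 18 ER folding genes were negative (median -0.07), 7 of 13 of ER-associated degradation (median -0.0026), 16 of 33 ATF4 targets (median 0.0050), 2 of 9 mitochondrial chaperones and proteases (median 0.07) and 1 of 12 sensors (median 0.21). Summed on that scale, with EGT and then in AKI-CKD, the lists stood at 1862 to 2360 and 2118 to 2356 CPM for ER folding, 996.8 to 1009 and 892.4 to 1002 for ER-associated degradation, 1069 to 1232 and 1083 to 1316 for ATF4 targets, 2648 to 2732 and 2824 to 3089 for mitochondrial chaperones and proteases, and 181.5 to 204.8 and 166 to 172.8 for sensors. Of these sums, the mitochondrial one was lower and that of the sensors higher with EGT without overlap, although more genes of the mitochondrial list were positive than negative. The sensor sum was also higher with EGT without overlap in the other tested classes. It was 212.2 to 234.5 against 180.8 to 203.1 CPM in DCT and 217.7 to 227.9 against 204.8 to 216.6 in LOH cells. In endothelial cells it was 264.3 to 275.9 against 214.3 to 260.6, and in macrophages 204.2 to 233.1 against 159.6 to 194.3.

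For AKI-CKD against Control in PT cells, 0 genes of these 5 lists passed, and medians were 0.06 for ER folding genes, 0.03 for ER-associated degradation, 0.06 for ATF4 targets, 0.01 for sensors and 0.10 for mitochondrial chaperones. Without Control mouse 1 these medians were 0.09, 0.06, 0.17, 0.05 and 0.04, with 0 genes passing, and on the plain scale they were -0.04, -0.07, -0.04, -0.08 and 0.0011, where the median of all genes was -0.11. With all Control mice, 7 of 33 ATF4 targets were higher and 1 lower without overlap. Of 9 mitochondrial chaperones and proteases, 3 were higher and 0 lower without overlap. The other lists had fewer: 1 higher and 1 lower of 18 ER folding genes, 1 and 0 of 13 of ER-associated degradation, and 0 and 1 of 12 sensors. Of all genes, 21.0% were without overlap in either direction, a share near that of the ATF4 targets. Gdf15, a secreted factor under ATF4 and p53, was at 1.18 ± 0.48 and Psph, of serine synthesis, at 0.60 ± 0.18 (adjusted p = 0.410 and 0.338) with all Control mice. Among 10 tubule injury genes 1 passed, Cdkn1a, the cell cycle inhibitor p21, which rose by 3.50 ± 0.46 on the log2 scale (adjusted p = 0.0292). This call was lost with the replicate number as a block (3.56 ± 0.50, adjusted p = 0.123), on the plain scale (adjusted p = 0.0519), and without Control mouse 1, 2 or 3 or AKI-CKD mouse 2 or 3 (3.17 to 3.70, adjusted p from 0.0698 to 0.167). In DCT cells, ATF4 targets other than Asns with the smallest unadjusted p for AKI-CKD against Control were Gars (0.53 ± 0.15), Atf5 (0.79 ± 0.23), Eif4ebp1 (0.57 ± 0.20) and Ddit4 (0.54 ± 0.23), with adjusted p from 0.435 to 0.530. Over the 29 ATF4 targets tested in DCT cells, 17 were positive against Control and 20 negative with EGT, 2 of them without overlap, where 7.95% of all genes were, and 0 passed in either; among 18 ER folding genes the counts were 16 and 15, with 5 higher without overlap against Control (8.22% of all genes) and 5 lower with EGT (7.95%), both comparisons sharing the AKI-CKD mice. Without Control mouse 1, 19 of 30 ATF4 targets and 15 of 18 ER folding genes were positive, and on the plain scale 16 of 29 and 13 of 18 were negative with EGT. In LOH cells, 15 of 30 ATF4 targets and 9 of 18 ER folding genes were positive against Control, 17 and 13 were negative with EGT, and 0 passed; without Control mouse 1, 16 and 9 were positive.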

How the data were processed

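Single cells of 9 mouse kidneys were captured in droplets with poly(dT) primers, and the deposited matrices hold raw UMI counts per gene and cell, written by PISA per the file headers. The submitters' processing notes name GRCm39; the aligner is not given in the sources used here. Groups came from the sample titles.

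A minimum of 1000 UMIs and of 500 genes and a mitochondrial share of no more than 15% left 196925 of 216680 cells, more than the study retained under the same limits. The 2000 most variable genes, without the 8 members and the pathway lists, gave 30 components, corrected by Harmony and clustered by Leiden (resolution 1.1, igraph 0.11.9). Clusters were named from marker lists, by a rule refined after the clusters were seen; 6142 cells stayed unnamed, and the study's own labels may differ. No doublet caller was run.

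Counts were summed per mouse and class (at least 20 cells) and tested with edgeR 4.0.16 (quasi-likelihood, TMM, filterByExpr, all 9 mice in the fit, adjusted p of 0.05), DESeq2 1.42.0 being an alternative. Scripts were tested on simulated data. All 8 members were named, and pathway lists were given by counts with at most the 4 genes of smallest p. Members and lists were chosen with earlier results of these data known. Promoters came from RefSeq on GRCm38.p6, a different build from the counts, and were matched by symbol; 8 of the 35 ATF4 targets were found by an older symbol.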

Additional observations from a re-analysis of the deposited data

How the results depend on the processing

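Member calls rested on 3 mice a group and, for Asns, Chac1 and Trib3, on few molecules. Over the alternatives, 190 recomputed counts of members called stayed the same and 2 moved: DESeq2 called 1 member for EGT against AKI-CKD in PT cells (Hspa5, -0.84), and omitting the low-count filter called 1 for AKI-CKD against Control in DCT cells (Asns, 1.88). With so few members, and a small share of all genes called in most settings, unchanged counts do not show that the members are stable. Without Harmony, 1 member (LOH) and 2 members (macrophage) were called in the difference of the EGT effect from PT cells; the LOH class then held 25165 cells. In PT, DCT and LOH cells, recomputed member fold changes kept sign and side of the threshold in 693 cases, came to pass it in 2 and changed sign in 42. The causes were not tested.

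Log2 fold changes with a changed sign in these 3 classes were as follows; those of endothelial cells and macrophages were not counted, and their changes of sign without Control mouse 1 stand in the text above. For AKI-CKD against Control in PT cells, Ddit3 was -0.0016 on the plain scale, and Asns was 0.029 with a mitochondrial limit of 10%, 0.083 without Harmony and 0.0065 with the pathway lists and members allowed among the variable genes, which brought in 0 of the 8 members. For EGT against AKI-CKD in PT cells, Atf4 was 0.093 on the plain scale and Trib3 was 0.069 on the plain scale, 0.17 without Harmony and 0.0060 with the replicate block. Xbp1 in DCT cells was 0.071, and Ddit3 and Atf4 in LOH cells 0.0059 and 0.014, against Control without Harmony. Xbp1 in LOH cells was 0.014 for EGT against AKI-CKD without the low-count filter.

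The number of genes called moved widely. For AKI-CKD against Control it was 8 in PT cells, 224 with DESeq2, 102 without the filter, 0 with the replicate block and 5 on the plain scale; in DCT cells 0, then 11 with DESeq2, 241 without the filter and 2 with only the 6 mice compared; in LOH cells 0, then 23, 200, 31 without Harmony, 4 with the lists allowed among the variable genes and 4 without the 5% of cells with most UMIs; in endothelial cells 0, then 11 and 140; in macrophages 1, then 35 without the filter and 0 without Harmony. For EGT against AKI-CKD it was 0 in PT cells, 463 with DESeq2 and 222 without the filter; in DCT cells 0, then 72 and 493; in LOH cells 0, then 44, 426, 2 with only the 6 mice, 457 without Harmony, 47 with the lists allowed among the variable genes and 42 without the cells with most UMIs; in endothelial cells 1, then 69, 216 and 0 with the mitochondrial limit of 10%; in macrophages 1, then 55 without the filter and 0 without Harmony.

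With 1 mouse left out at a time, genes called ranged in AKI-CKD against Control from 0 to 12 in PT, 0 to 5 in DCT, 0 to 1 in LOH, 0 to 1 in endothelial cells and 0 to 1 in macrophages, and in EGT against AKI-CKD from 0 to 117 in PT (117 without AKI-CKD + EGT mouse 1), 0 to 14 in DCT, 0 to 5 in LOH, 1 to 2 in endothelial cells and 0 to 1 in macrophages. Members called in the difference from PT cells ranged from 0 to 1 (LOH) for AKI-CKD against Control, and from 0 to 3 (LOH) and 0 to 1 (macrophages) for EGT against AKI-CKD. In PT, DCT and LOH cells, fold changes whose sign changed ranged, for AKI-CKD against Control in PT cells, from -0.0089 to 0.39 (Hspa5), -0.11 to 0.74 (Ddit3), -0.17 to 0.14 (Atf4), -0.60 to 0.19 (Xbp1), -1.40 to 0.011 (Trib3), -0.87 to 0.90 (Asns) and -0.30 to 0.37 (Herpud1); in DCT cells from -0.10 to 0.43 (Hspa5), -0.0046 to 0.79 (Ddit3), -0.13 to 0.26 (Atf4), -0.27 to 0.16 (Xbp1) and -0.54 to 0.36 (Herpud1); in LOH cells from -0.28 to 0.20 (Hspa5), -0.34 to 0.067 (Ddit3), -0.48 to 0.16 (Xbp1) and -0.42 to 0.10 (Herpud1). For EGT against AKI-CKD they ranged from -0.56 to 0.38 (Trib3, PT) and -0.32 to 0.075 (Xbp1, LOH).

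Same-numbered mice did not deviate together: of 27 pairs in 3 classes, 6 had a correlation over 0.1 (-0.437 to 0.439), so the replicate number was not taken as a pairing. The replicate block called 0 members in every class. The plain scale and counting the haemoglobin-led cluster as PT were chosen after seeing the data, and Control mouse 1 was singled out from its levels of these genes.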
